A study of Bos taurus with 170 samples.

Results

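The conserved oligomeric Golgi (COG) complex is built of 8 subunits, COG1 to COG8, and transcripts of 7 of them were counted among the 10772 genes of a single-cell transcriptome dataset of early bovine embryos. COG5 had no entry in the table of counts under that name and was not analysed here. The subunits were taken by name. The family was chosen from an earlier view of these same counts, in which COG2 was much lower on Day 3 than on Day 2. The contrast between days of COG2 is therefore given as a description with no test, and the other 6 subunits were tested.

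Vesicles that bring enzymes back from later to earlier Golgi cisternae are first caught by tethering factors and then fuse through SNARE proteins. COG is the tether of this retrograde traffic inside the Golgi, and cells that lack it mislay glycosyltransferases and make incomplete glycans. Its subunits form a pair of lobes. COG1 to COG4 make up lobe A and COG5 to COG8 lobe B, and COG1 and COG8 connect the lobes. In people, inherited defects of COG subunits cause congenital disorders of glycosylation.

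The embryos were produced in vitro from oocytes of slaughterhouse ovaries, with maturation in hormone-supplemented medium, fertilisation with thawed bull sperm and culture in synthetic oviductal fluid, and none received a treatment. The 6 Day 2 embryos (8-cell stage) gave 43 cells and the 8 Day 3 embryos (16-cell stage) gave 118 cells with 2000 or more unique molecular identifiers (UMI), each of which marks 1 captured mRNA molecule. The cells just inside and just outside this limit held 2101 and 1608 UMI. The labels name neither the animals nor the breed behind an embryo. Since the cells of 1 embryo are not independent, UMI were summed per embryo and the embryo was taken as the replicate. Levels are in CPM, the UMI of a gene per 1000000 UMI on genes. SCRB-Seq counts molecules at their 3′ end, so CPM were not divided by transcript length.

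Gene UMI per embryo summed to between 438899 and 920192 on Day 2 and to between 294912 and 600185 on Day 3, and the median cell held 76074 UMI on Day 2 and 24696 on Day 3. Day was partly tied to the set of cell barcodes. One set of cell barcodes served Day3-E1, Day3-E2 and every embryo of Day 2, another set served Day3-E4 to Day3-E8, and the set of Day3-E3 could not be read from its labels. The sample titles also end in a code, p1, p2 or p3, that the labels do not explain, and it was used only to group embryos. Day3-E1 to Day3-E4 carry p1, Day2-E5, Day2-E6, Day3-E7 and Day3-E8 carry p2, and the other embryos carry p3. The cells of the table carried 93 different barcodes, and 77 of these were used by 2 cells. Spike-in RNA took 1.38% to 1.52% of the UMI of a Day 2 embryo, 1.3995% to 1.463% in Day3-E1 to Day3-E3 and 2.43% to 2.98% in Day3-E4 to Day3-E8. Of 10 oocyte and embryo markers 9 were listed and counted on both days, with a summed level of 6333 to 7489 CPM on Day 2 and 2744 to 7688 CPM on Day 3. Of 10 cumulus and granulosa cell markers 7 were listed, with a sum of 494 to 607 CPM on Day 2 and 191 to 548 CPM on Day 3, and HAS2 and STAR held most of it. PTX3 stayed at or below 3.04 CPM and AMH at or below 7.798 CPM, and CYP19A1, FSHR and LHCGR had no entry. The 3 listed sperm markers gave 17 UMI in all. The part of these markers and of the spike-in share in the results below was not tested.

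COG2 and COG6 were the abundant subunits, and the other 5 were rare. On Day 2 the mean level was 196 CPM ± 37.0 (SD, n = 6) for COG2 and 121 CPM ± 13 for COG6. COG7 followed at 25 CPM ± 5.7, and COG8 (12 CPM ± 6.0), COG4 (11 CPM ± 3.5), COG3 (11 CPM ± 5.5) and COG1 (6.0 CPM ± 1.8) were the lowest. COG8, COG4 and COG3 lay within 1 SD of each other. These levels come from summed UMI, in which deeper cells weigh more. As the mean over cells of the CPM of each cell, COG2 was at 172 CPM ± 41.3 and COG6 at 181 CPM ± 95.3 on Day 2. On Day 3 this measure was 40.9 CPM ± 41.6 for COG2 and 73.2 CPM ± 41.1 for COG6. COG2 therefore stood above COG6 on Day 2 in summed UMI but not in this measure. In all cells kept, 906 UMI were counted for COG2, 706 for COG6, 144 for COG7, 87 for COG4, 81 for COG8, 74 for COG3 and 41 for COG1. By its mean CPM, COG2 stood above 88.2% of the 10772 genes on Day 2 and above 64.2% on Day 3, while COG1 stood above 34.7% and 32.3%.

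In summed UMI the order changed by Day 3. COG6 then held the highest mean of the family (66.0 CPM ± 32.6, n = 8) and COG2 the second (44.1 CPM ± 41.4), a gap smaller than either SD. COG7 was at 15 CPM ± 7.6, COG4 at 14 CPM ± 8.6, COG3 at 9.9 CPM ± 5.1, COG8 at 9.7 CPM ± 3.0 and COG1 at 5.4 CPM ± 5.6. Between neighbours in this order the means differed by less than the larger of their SDs. For the sum of all 7 listed subunits the level was 382 CPM ± 40.2 on Day 2 and 164 CPM ± 67.9 on Day 3. In bulk sums such as these, fewer molecules per cell and fewer cells with a transcript cannot be told apart, and shares of cells are given further on.

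**Figure D1:**
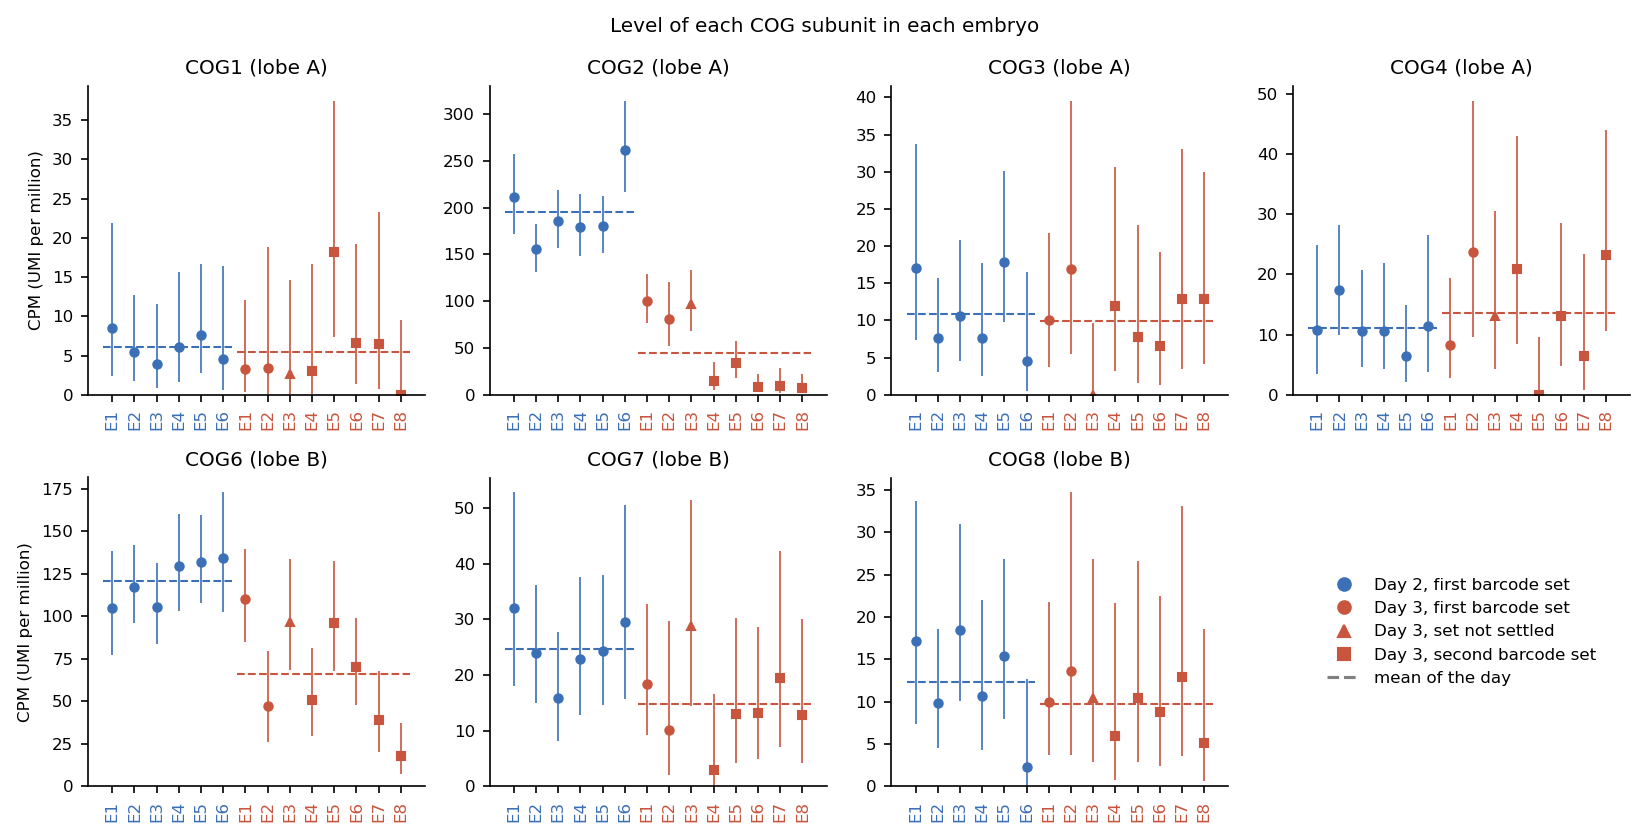
Level of each listed COG subunit in every embryo, in CPM (y axis, a separate linear scale for each subunit), with Day 2 embryos in blue and Day 3 embryos in red. Bars are exact 95% Poisson intervals of the UMI count, dashed lines the mean of each day, and symbols mark the barcode set. COG2 lies at 155 CPM or more in all Day 2 embryos and at 100.0 CPM or less in all Day 3 embryos.

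COG2, a lobe A subunit that binds the tether p115, lay in separate ranges on the 2 days. Its level was 212, 155, 186, 180, 180 and 262 CPM in Day2-E1 to Day2-E6. In Day3-E1 to Day3-E8 it was 100.0, 81.4, 96.9, 15, 33.8, 8.77, 9.70 and 7.72 CPM. The Day 2 embryos differed little, with a coefficient of variation of 18.9%, whereas the Day 3 embryos lay in a higher trio (Day3-E1 to Day3-E3) and 5 lower embryos, with 93.8%. In the paper Day3-E5 to Day3-E8 were collected later than Day3-E1 to Day3-E4. It places the trio's cells in clusters that also hold Day 2 cells, and most cells of Day3-E4 to Day3-E8 in clusters of Day 3 cells only. Barcode set, collection time and developmental progress thus largely coincide, and their parts were not tested.

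The Day 3 mean of COG2 was 22.5% of the Day 2 mean, and the fitted log2 fold change was -1.94. COG2 was the 1 subunit of 7 in which every Day 3 embryo lay below every Day 2 embryo in CPM, a separation that 5.38% of the 5274 tested genes also showed. The lower 5 embryos are those of the second barcode set, where only 28 UMI of COG2 were counted. The day difference was therefore looked at within barcode sets and title codes. Within the first set the Day 3 embryos held 81.4 and 100.0 CPM against 155 to 262 CPM on Day 2, and the log2 fold change was -0.93 (2 against 6 embryos). Within code p2 the Day 3 embryos held 7.72 and 9.70 CPM against 180 and 262 CPM, and within code p3 they held 8.77 and 33.8 CPM against 155 to 212 CPM. All Day 3 embryos with these codes belong to the second set, and with the code as a term the p2 and p3 embryos gave -3.44. Without that term the same embryos gave -3.45, so the term itself hardly moved the value. COG2 was lower on Day 3 in each subset that could be compared, by very different amounts, and no Day 2 embryo carries p1.

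COG6, a lobe B subunit that interacts with Golgi SNAREs, was the only other abundant member and was lower on average. Its level was 105, 117, 106, 129, 132 and 134 CPM in Day2-E1 to Day2-E6. In Day3-E1 to Day3-E8 it was 110, 47.5, 96.9, 50.8, 96.2, 70.1, 38.8 and 18.0 CPM. Of the 8 Day 3 embryos, 7 lay below the lowest Day 2 embryo, and Day3-E1 lay inside the Day 2 range. The Day 3 mean was 54.8% of the Day 2 mean, with a log2 fold change of -0.65 (SE 0.25, 95% interval -1.18 to -0.13). In edgeR's quasi-likelihood test this missed the threshold (Benjamini-Hochberg adjusted p = 0.0534 over all tested genes). By DESeq2 the log2 fold change of COG6 was -0.60 with an adjusted p of 0.0192, where 2217 of the 5274 tested genes passed. By the exact permutation test of CPM over all ways to assign the embryos to days (two-sided), the difference of -54.5 CPM had an adjusted p of 0.0228, where 35.0% of the tested genes passed the same threshold. Over 23 other settings in which COG6 was fitted, its adjusted p ran from 0.0192 to 0.406 and its log2 fold change from -0.89 to -0.42.

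COG2 and COG6 varied together only in part over the 8 Day 3 embryos, with a Pearson's r of log2 CPM of 0.57. Counting error limits this r, since COG2 rests on 3 to 5 UMI in Day3-E4 and Day3-E6 to Day3-E8. COG6 rests on 7 UMI in Day3-E8. Day3-E5 held 96.2 CPM of COG6 beside 33.8 CPM of COG2, whereas Day3-E2 held 47.5 CPM beside 81.4 CPM. The ratio of COG2 to COG6 was 2.02, 1.32, 1.76, 1.39, 1.37 and 1.95 in the Day 2 embryos. In Day3-E1 to Day3-E8 it was 0.909, 1.71, 1.00, 0.294, 0.351, 0.125, 0.250 and 0.429. In the summed UMI of every Day 2 embryo COG2 exceeded COG6, and among the Day 3 embryos this held for Day3-E2 only. In the 5 embryos of the second set the ratio stayed at or below 0.429.

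COG7, the lobe B subunit whose defect was the first COG disorder described in patients, was at 32, 24, 16, 23, 24 and 29.6 CPM on Day 2. On Day 3 it was at 18, 10.17, 29, 2.99, 13, 13, 19 and 13 CPM, from counts of 1 to 11 UMI per embryo. The ranges overlapped in 3 Day 3 embryos, and 5 lay below the Day 2 range. The log2 fold change was -0.46 (SE 0.30, 95% interval -1.10 to 0.18, edgeR adjusted p = 0.248), and the interval held both 0 and the log2 fold change of COG6. The exact permutation test of CPM gave an adjusted p of 0.0563 for COG7.

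The remaining 4 subunits did not pass the filter on low counts and were fitted only without that filter. COG1, which helps to hold the lobes together, had a log2 fold change of 0.00 (95% interval -0.84 to 0.85). COG3 had 0.02 (-1.04 to 1.07) and COG4, which binds the SNARE syntaxin 5 and its partner SCFD1, had 0.45 (-0.57 to 1.48). COG8, the lobe B partner of COG1, had -0.21 (-1.07 to 0.65). In this unfiltered edgeR fit 0 of the 6 subunits other than COG2 passed the threshold, while 20.3% of the 10772 genes did. In the same fit COG6 was at -0.71 (SE 0.27), and the SEs of the 4 rare subunits were 0.41 to 0.51. A difference of the size of COG6's lay inside the intervals of COG1, COG3 and COG8 and was therefore not excluded for them, and it lay below the interval of COG4.

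Single embryos show how few molecules lie behind these levels. COG1 was counted 2 to 6 times in a Day 2 embryo and 0 to 7 times in a Day 3 embryo. COG3 was at 4.6 to 18 CPM on Day 2 and at 0 to 17 CPM on Day 3, and COG4 at 6.4 to 17 CPM and 0 to 24 CPM. For COG8 the ranges were 2.3 to 18 CPM and 5.1 to 14 CPM, and all Day 3 embryos lay inside the Day 2 range. The levels of 0 were COG1 in Day3-E8, COG3 in Day3-E3 and COG4 in Day3-E5. There a count of 0 allows up to 7.72, 7.86 and 7.798 CPM (3 UMI of the embryo's total, counting error only), which covers most of the Day 2 levels of COG1. In the RefSeq annotation of ARS-UCD2.0, another assembly than the one used for the counts, COG1 overlaps FAM104A and SLC39A11, and COG8 overlaps VPS4A and PDF. Whether the counting used the strand is not given in the sources used here, so the counts of COG1 and COG8 are uncertain in that respect.

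In the edgeR fit the lower level of COG2 on Day 3 was not accompanied by a called change in the rest of the family. Of the 6 other subunits 2 were tested with the filter and 0 were called, beside 32.5% of the 5274 tested genes. At an unadjusted p under 0.05 edgeR gave 1 of the 2, COG6, and DESeq2 and the exact permutation test each called that 1. The edgeR fit called 1117 genes higher and 595 lower, with a median log2 fold change over all genes of -0.04. Without TMM scaling the median moved to -0.27 and the split to 890 higher and 981 lower. COG6 was then at -0.85 (edgeR adjusted p = 0.0345), and relative to the median of all genes it was lower under both scalings.

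**Figure D2:**
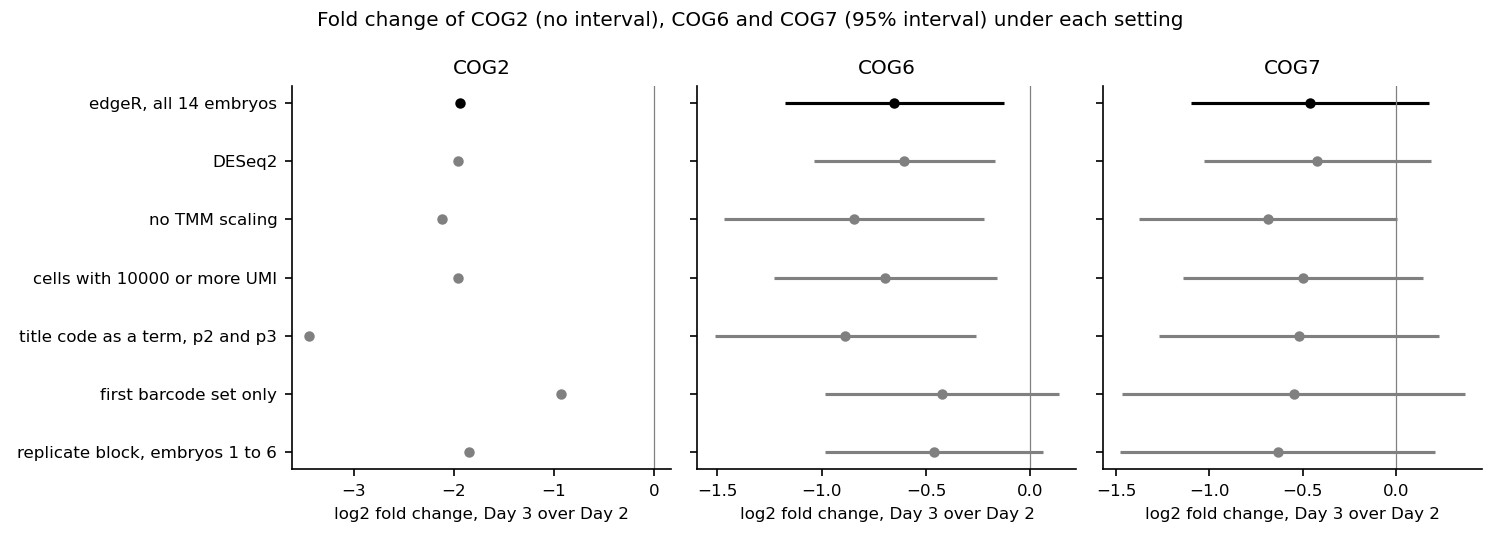
Log2 fold change (x axis, Day 3 over Day 2) of COG2, COG6 and COG7 in the edgeR fit of all 14 embryos (black) and 6 other settings (grey), with the 95% interval of COG6 and COG7. COG2 ranges from -3.44 to -0.93 and COG6 from -0.89 to -0.42, and all points lie below 0.

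Relative to spike-in RNA, the Day 3 mean of every listed subunit was a smaller share of its Day 2 mean than in CPM. Spike-in RNA was added in equal amount to each well, and a well held a single cell. This scale would read as a level per cell if spike-in UMI tracked the amount added, which was not tested. In Day 2 cells without COG2, of 3019 to 14445 UMI, the spike-in share was 1.03% to 1.52%. It was 1.38% to 1.52% in whole Day 2 embryos and higher only in Day3-E4 to Day3-E8 (2.43% to 2.98%). The paper normalised without spike-ins, holding that technical variation affects them and endogenous transcripts unequally. A Day 3 embryo also has more cells than a Day 2 embryo. A lower level per cell is not by itself a lower amount per embryo, and the amount per embryo was not tested. COG2 was at 13.34 UMI per 1000 ERCC UMI on Day 2 and 2.73 on Day 3. COG6 was at 8.23 and 3.42 (exact permutation test, adjusted p = 0.0142 over all tested genes). COG7 was at 1.68 and 0.768 (adjusted p = 0.0245 by the same exact test), while in CPM it missed the threshold (adjusted p = 0.0563, exact permutation test). The share of all tested genes that passed on the spike-in scale was not counted. The calls of COG6 and COG7 on this scale are therefore not read as particular to COG. COG1 (0.410 and 0.238), COG3 (0.742 and 0.463), COG4 (0.762 and 0.664) and COG8 (0.840 and 0.483) had unadjusted exact permutation p values between 0.0749 and 0.670.

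Across cells, COG2 went from being nearly always counted to being counted in a minority. Of 43 Day 2 cells, 39 (90.7%) held a UMI of COG2, and of 118 Day 3 cells 53 (44.9%) did. Over embryos the mean share was 89.8% ± 20.0 (SD, n = 6) on Day 2 and 45.0% ± 31.1 (n = 8) on Day 3. By embryo it ran from 50% to 100% and from 13% to 93%. For COG6 the cells were 42 (97.7%) and 80 (67.8%), and the embryo means 97.2% ± 7 and 67.6% ± 18. Cells of 1 embryo are not independent, so no interval is given for the pooled shares. In positive cells the median was 18.0 UMI of COG2 on Day 2 and 2.0 on Day 3, and the highest counts were 64 and 9. For COG6 the highest counts were 40 and 11 UMI.

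Since Day 2 cells were deeper, the share was also computed as its expected value after thinning each cell to 10000 UMI, which left out 6 Day 2 and 15 Day 3 cells. For COG2 it was 63.2%, 83.3%, 84.5%, 80.1%, 82.9% and 89.7% in Day2-E1 to Day2-E6. It was 65.3%, 55.1%, 57.2%, 12.7%, 24.6%, 5.44%, 9.99% and 7.69% in Day3-E1 to Day3-E8. The higher trio of Day 3 embryos thus stood close to the lowest Day 2 embryo in this measure, and Day3-E1 lay just above it.

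COG6 was steadier on Day 2, at 64.0% to 72.6% of thinned cells, and ranged from 15.64% to 59.7% on Day 3. It was the 1 subunit of 7 whose thinned share was lower in every Day 3 embryo than in every Day 2 embryo, which 4.57% of the tested genes also showed. The mean fell from 70.7% ± 3.3 (n = 6) to 43.8% ± 16 (n = 8), with an exact permutation p of 0.00233 and an adjusted p of 0.0245. By that test 28.2% of the tested genes passed the threshold. For COG7 the thinned share was 23.0% ± 7.73 and 12.3% ± 8.15 (adjusted p = 0.0751, exact permutation test). As sequenced, the shares of COG7 were 67.4% and 29.1% and passed the threshold (adjusted p = 0.0208, exact permutation test), a call that was not made at equal depth.

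The low subunits were counted less often on Day 3 as sequenced, and their shares were closer at equal depth. A UMI of COG1 was found in 16 of 43 and 13 of 118 cells, of COG3 in 24 and 21, of COG4 in 24 and 31, and of COG8 in 24 and 24. Thinned to 10000 UMI, the mean shares were 6.5% and 4.9% for COG1, 11% and 8.0% for COG3, 12% and 12% for COG4, and 10.17% and 9.6% for COG8. The exact permutation test gave unadjusted p values between 0.236 and 0.938 for these 4.

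**Figure D3:**
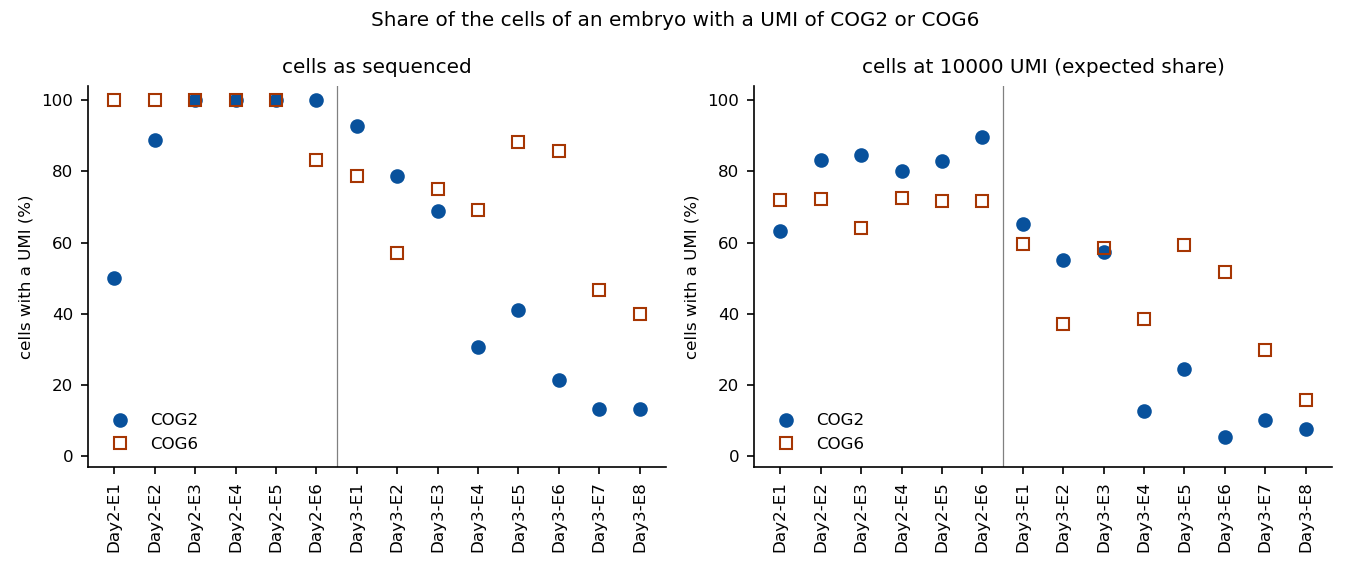
Share of the cells of each embryo (y axis, percent) with a UMI of COG2 (filled circles) or COG6 (open squares), as sequenced on the left and as the expected value at 10000 UMI per cell on the right. At equal depth COG2 is at or below 24.6% in Day3-E4 to Day3-E8, while COG6 is at 15.64% to 59.3% in the same embryos.

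Within embryos the UMI of COG2 were spread over most cells on Day 2 and in Day3-E1 to Day3-E3, and over few cells in most embryos of the second set. In cells with 10000 or more UMI, 36 of 37 Day 2 cells held a UMI of COG2, and the median cell of a Day 2 embryo held 152 to 227 CPM. In Day3-E1 all 13 such cells held COG2, at 46.9 to 234 CPM. In Day3-E2 it was 10 of 13 cells and in Day3-E3 11 of 13. In Day3-E4, Day3-E6, Day3-E7 and Day3-E8 the median cell held 0 CPM, and 4 of 11, 3 of 14, 2 of 12 and 2 of 14 cells held a UMI. Day3-E5 was between these, with 7 of 13 cells and a median of 31.2 CPM. A median of 5.0 listed subunits was counted in a Day 2 cell and 2.0 in a Day 3 cell. At 10000 UMI per cell the expected numbers were 2.1 ± 0.092 (SD, n = 6) and 1.2 ± 0.41 (SD, n = 8) over embryos. COG2 outnumbered COG6 in 30 of 43 Day 2 cells and in 22 of 118 Day 3 cells, and COG6 outnumbered COG2 in 12 and 59. A further 24 Day 3 cells held neither, and 9 held no listed subunit at all.

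In summed UMI, lobe A carried the larger share of the COG UMI on Day 2, and COG2 made up most of it. With each cell weighted equally, the Day 2 mean of COG6 was above that of COG2, by less than either SD. The lobe A share then differed by -10.9 percentage points (Day 3 minus Day 2). The summed level of lobe A was 224 CPM ± 35.1 on Day 2 and 73.1 CPM ± 39.7 on Day 3. Lobe B, here COG6, COG7 and COG8, was at 158 CPM ± 12 and 90.5 CPM ± 37.6. The lobe A share of the COG UMI was 58.5% ± 3.53 (n = 6) on Day 2 and 43.9% ± 12.1 (n = 8) on Day 3. By embryo it was 61.7%, 55.2%, 60.2%, 55.6%, 55.3% and 62.9% on Day 2. On Day 3 it was 46.8%, 63.8%, 45.3%, 45.9%, 33.3%, 27.6%, 33.3% and 54.8%, so 7 of the 8 embryos lay below the Day 2 range and Day3-E2 above it. The counts behind these shares are small on Day 3: Day3-E8 held 31 COG UMI, and its 95% Wilson interval ran from 37.8% to 70.8%. With COG2 in the sum, this shift follows from the choice of the family and was not tested.

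Without COG2 the remaining lobe A subunits summed to 28.1 CPM ± 5.82 on Day 2 and 28.9 CPM ± 9.11 on Day 3. Per 1000 ERCC UMI, the same sum was 1.91 UMI ± 0.370 on Day 2 and 1.36 UMI ± 0.689 on Day 3. On that scale the Day 3 mean was 71.3% of the Day 2 mean. COG7 and COG8 together were at 37.0 CPM ± 6.5 and 24.5 CPM ± 9.1. The ratio of lobe A without COG2 to lobe B was 0.179 ± 0.0395 on Day 2 and 0.420 ± 0.301 on Day 3. It ran from 0.123 to 0.236 on Day 2 and from 0.115 in Day3-E3 to 1.00 in Day3-E8, which held 31 COG UMI in all. Of 8 Day 3 embryos 5 lay above the Day 2 range, 2 inside it and 1 below. The medians were 0.183 on Day 2 and 0.325 on Day 3. Since COG6 stays in lobe B, this ratio also follows the level of COG6. With COG6 left out as well, the ratio was 0.758 ± 0.0880 and 1.52 ± 1.14. COG2 alone made up 51.0% ± 4.58 of the COG UMI on Day 2 and 22.1% ± 15 on Day 3, and COG6 31.8% ± 3.66 and 39.9% ± 12.1. The share of the other 5 subunits was 17.2% ± 3.31 and 38.0% ± 16, while their summed level was 65.1 CPM ± 11.9 and 53.4 CPM ± 7.19.

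**Figure D4:**
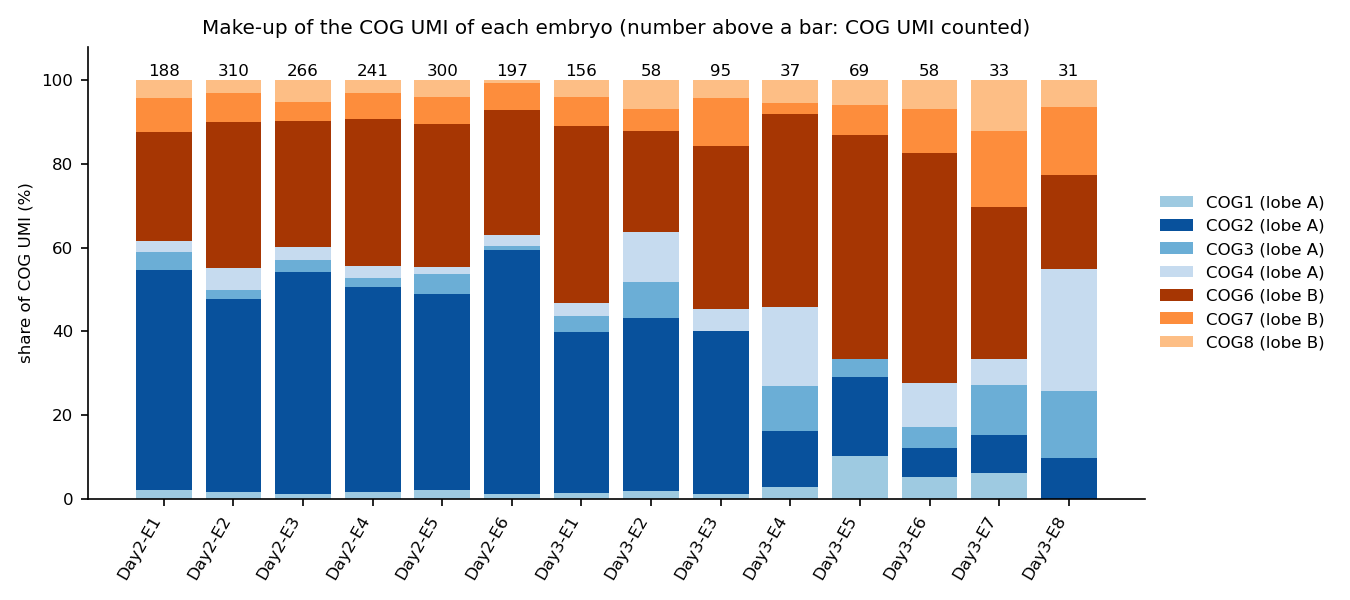
Make-up of the COG UMI of each embryo (y axis, percent), with lobe A subunits in blue and lobe B subunits in orange, and the number of COG UMI above each bar. COG2 (dark blue) makes up 46.1% or more in all Day 2 embryos and at most 41.4% in the Day 3 embryos.

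Lobe shares differed with the barcode set as well. In the first barcode set alone, the 2 Day 3 embryos held lobe A shares of 46.8% and 63.8% against 55.2% to 62.9% on Day 2, which overlap. In the second set the shares were 27.6% to 54.8%, where the upper value was that of Day3-E8. The mean of lobe A without COG2 was 27.2 CPM in Day3-E1 to Day3-E3 and 30.0 CPM in Day3-E4 to Day3-E8. COG6 averaged 84.8 CPM and 54.8 CPM in the same subsets, whose ranges (47.5 to 110 and 18.0 to 96.2 CPM) overlapped, and COG2 92.7 CPM and 15 CPM, whose ranges did not.

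Other genes of Golgi traffic were read beside COG in 9 lists with 120 genes, of which 99 were listed and 69 tested. In edgeR 4 were called higher and 15 lower (27.5% called, beside 32.5% of all tested genes), with a median log2 fold change of -0.33 beside -0.04 over all tested genes. Called members were mostly lower, but the lists were not uniform. In the first barcode set alone, with 2 Day 3 embryos, 1 was called higher and 0 lower of 77 tested, with 7 at an unadjusted p under 0.05. That fit called 327 higher and 24 lower of all 6193 genes tested in it. DESeq2 called 6 higher and 20 lower, beside 1326 higher and 891 lower of all 5274 tested genes. Without TMM scaling edgeR called 2 higher and 23 lower, beside 890 and 981 of all tested genes. Of the 17 genes named below, 8 were called in every edgeR fit that left out 1 embryo and tested them. MGAT1, 1 of these, was tested in only 8 of the 14 such fits and was not tested in the first barcode set alone. The other 9 (ARF1, BLZF1, COPB1, EXOC5, GOLIM4, SCFD1, STX6, VPS50 and VPS54) missed the threshold in 3 to 9 of the 14 such fits, with edgeR adjusted p values up to 0.101, and none changed sign. Without TMM scaling VPS54 and ARF1 also missed it (edgeR adjusted p = 0.0644 and 0.105).

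Of 14 tested subunits of the 4 other tethers 4 were called, 1 higher and 3 lower (28.6%, beside 32.5% of all tested genes). In the GARP and EARP complexes, which tether endosome-derived vesicles and share most subunits, 3 of 5 genes were tested. VPS54, the subunit proper to GARP, rose from 19.9 CPM ± 8.03 to 34.9 CPM ± 14 (log2 1.04, edgeR adjusted p = 0.0236). VPS50, which takes its place in EARP, fell from 89.5 CPM ± 12.6 to 42.1 CPM ± 26.9 (log2 -0.88, edgeR adjusted p = 0.0384). In the exocyst, the tether of the plasma membrane, 2 of 5 tested subunits fell, EXOC2 (log2 -0.72) and EXOC5 (log2 -0.55), and the median was -0.55. Of the Dsl1 or NRZ tether at the endoplasmic reticulum 2 were tested and 0 called in edgeR, with a median of -0.63, where 1 had an unadjusted p under 0.05 and DESeq2 called 1 lower. Of the TRAPP complexes 4 of 14 were tested and 0 called by edgeR or DESeq2, with a median of 0.04. At an unadjusted p under 0.05 edgeR gave 0 and DESeq2 1 of these.

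Most called partners of COG in the Golgi were lower on Day 3. USO1, the p115 tether, fell from 157 CPM ± 23.5 to 53.5 CPM ± 36.2 (log2 -1.35, edgeR adjusted p = 0.00609). With GOLIM4 (log2 -0.84) and BLZF1 (log2 -0.79) it made up the 3 called of 11 tested golgins and GRASPs, which hold cisternae and catch vesicles. SCFD1, which pairs with syntaxin 5, fell by 0.70 and STX6, a SNARE of the trans-Golgi network, fell by 0.53 on the log2 scale, and these were the 2 called of 12 tested SNAREs and SM proteins. With the title code as a term STX6 missed the threshold (edgeR adjusted p = 0.0689). In the COPI coat, which forms the vesicles that COG tethers, COPB2 (log2 -1.20) and COPB1 (log2 -0.93) fell and 6 of 8 were not called.

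ARFGAP3, which switches off the ARF GTPases of the COPI coat, had the largest change of the 17 named genes. It rose from 12.5 CPM ± 3.18 on Day 2 to 220 CPM ± 159 on Day 3 (log2 4.50, SE 0.64, edgeR adjusted p = 0.000141), and this was the 1 call that held in the first barcode set alone. ARF4 fell (log2 -1.04) and ARF1 rose (log2 0.76) among the 4 called of 14 GTPases and their factors. Of 10 tested genes of Golgi glycosylation 1 rose and 3 fell. MGAT1, which opens the way to hybrid and complex N-glycans, rose from 11 CPM ± 6.2 to 40.8 CPM ± 28.4 (log2 2.18). MGAT5, a branching enzyme, fell by 1.07, and SLC35A1, the carrier of CMP-sialic acid, fell by 1.06, both on the log2 scale.

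**Figure D5:**
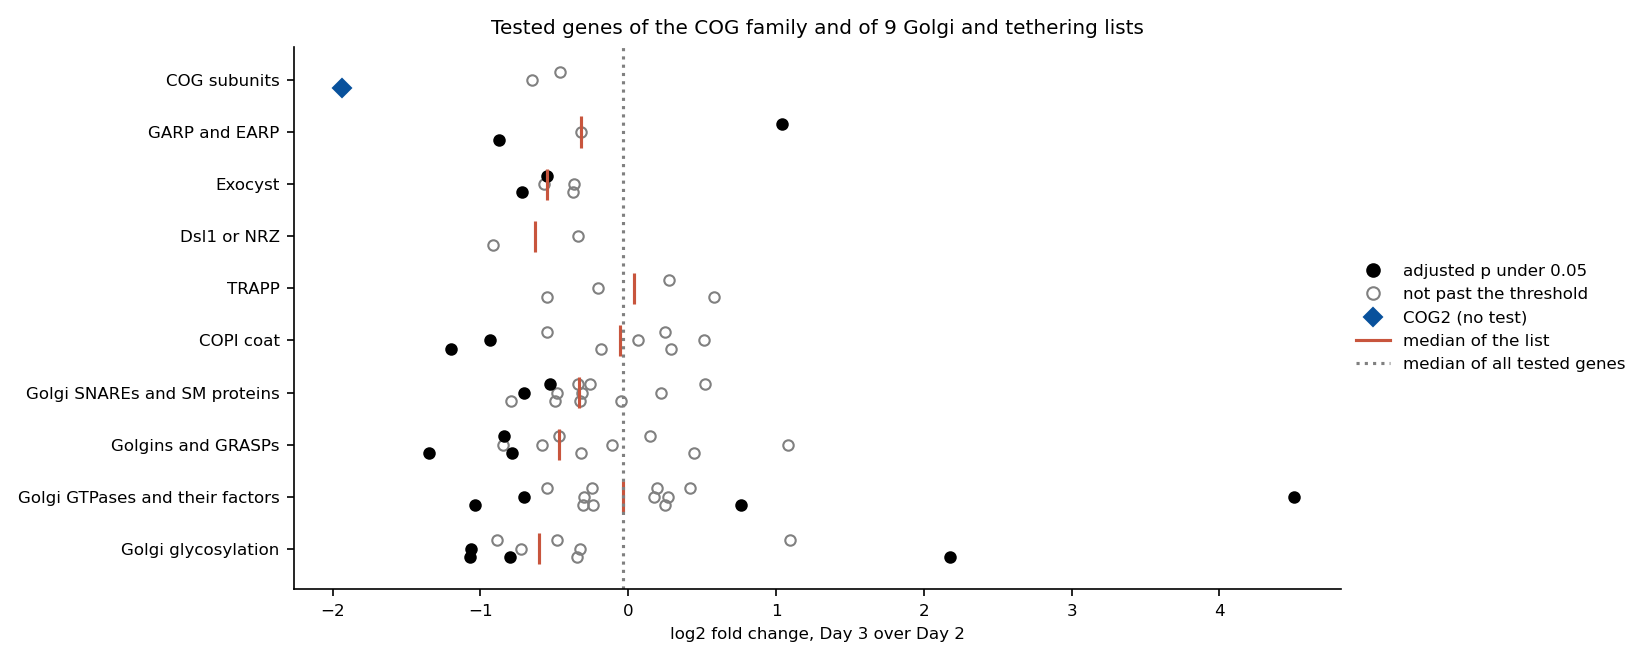
Log2 fold change (x axis, Day 3 over Day 2, edgeR) of the tested COG subunits and of the tested genes of 9 lists of tethers and Golgi genes. Filled points passed the adjusted threshold, red bars are list medians, and the dotted line is the median of all tested genes at -0.04. COG2 (diamond, no test) lies at -1.94, and the lowest gene of the lists, USO1, at -1.35.

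Among the tested genes, those whose levels were most like those of COG2 were not subunits of COG. COG1, COG3, COG4 and COG8 did not pass the filter and were not ranked. COG7 had 1 to 11 UMI per Day 3 embryo, and such counting error limits the r it could reach. The ranking therefore does not decide whether the rest of the family follows COG2. Over the 14 embryos, Pearson's r of log2 CPM was highest for CCT2, a subunit of the chaperonin of actin and tubulin (0.98), GABPB1, a transcription factor subunit (0.98), CLCC1, a chloride channel protein of the endoplasmic reticulum (0.98), PSMA4, a proteasome subunit (0.97), and ZNF34, a zinc finger gene (0.97). Over the 8 Day 3 embryos they were CCT2 (0.99), ZNF34 (0.99), PSMA4 (0.98), CLCC1 (0.98) and GIGYF2, a translational repressor (0.95). These embryos share days and barcode sets, so the values are descriptions. PSMA4, for example, held 302 to 388 CPM on Day 2, 253 to 262 CPM in Day3-E1 to Day3-E3 and 58.2 to 130 CPM in Day3-E4 to Day3-E8. COG6 was at r = 0.76 over the 14 embryos, rank 700 of 5273 genes, and at 0.57 over the Day 3 embryos, rank 1017. COG7 was at 0.47 and 0.17, and the median gene at 0.12 and 0.04.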

How the data were processed

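Single blastomeres were sequenced by SCRB-Seq. The authors mapped reads to the bovine genome Bos tau7 and the ERCC sequences with STAR 2.5.2b, counted UMI with the Drop-seq pipeline and deposited whole-number UMI counts per gene and cell (10772 genes, 92 spike-ins, 170 cells). The depth of an embryo is the sum of its cells. The deposited normalised table was not used. The study's limit of 2000 UMI per cell was applied, which removed 9 of the 170 cells. Days and embryos were taken from the labels.

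UMI were summed per embryo and fitted with edgeR 4.0.16 (TMM, filterByExpr, quasi-likelihood test, Benjamini-Hochberg adjustment over all tested genes, threshold 0.05). The exact permutation test ran over all 3003 assignments of 14 embryos, two-sided, for all filtered genes, and its smallest p is 0.000333. Thinned shares are expected values under draws without replacement. DESeq2 1.42.0 and other settings were alternatives. Scripts were tested on simulated data. Members and lists were chosen with earlier results of these data known. From each list at most 3 called genes, those with the largest fold change, were named, and the 5 genes most like COG2 by Pearson's r (edgeR log2 CPM, prior count 2). RefSeq (ARS-UCD2.0) served for names and neighbours only. Poisson and Wilson intervals and the limit of 3 UMI cover counting error only.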

Additional observations from a re-analysis of the deposited data

Results flagged for a closer look

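COG1 was at 18.2 CPM in Day3-E5, from 7 UMI (exact 95% Poisson interval 7.32 to 37.5 CPM), and the next Day 3 embryo held 6.57 CPM. The gap was 0.639 of the range of the 8 Day 3 embryos, above Dixon's critical value of 0.526. This was the 1 flag in 20 groups examined (7 subunits and 3 lobe measures on 2 days), and chance alone flags about 1 in 20.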

How the results depend on the processing

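In the edgeR fit 1712 genes were called between days. The count was 351 with the first barcode set only (2 Day 3 embryos) and 1327 to 2163 when 1 embryo was left out. With embryos 1 to 6 of each day and the embryo number as a replicate block it was 702, and without the block on the same embryos, a setting chosen after seeing the data, 1008. The numbers only name the embryos: same-numbered embryos correlated at -0.13 to 0.03 in their deviations, none best with its own number. With the block COG2 was at -1.85, and no other subunit was called with or without it. Besides COG2, 0 subunits were called, but 1, COG6, was called without TMM scaling (adjusted p = 0.0345 in edgeR), with cells of 10000 or more UMI, with the title code (p2 or p3) as a term, by DESeq2, by the exact permutation test and without Day 3 replicates 1, 3 or 5 (edgeR adjusted p = 0.0224, 0.0384 and 0.0418), so that leaving out 1 embryo gave 0 to 1. The log2 fold change of COG2 was -3.44 with the title code as a term and -2.20 to -1.81 when 1 embryo was left out. The fit with the code used p2 and p3 embryos only. Without the term these embryos gave -3.45 for COG2 and -0.88 for COG6 (edgeR adjusted p = 0.0282), so the term itself hardly moved either value. The lobe A share differed between days by -14.6 percentage points, by -3.19 in the first barcode set and by -17.5 to -12.3 when 1 embryo was left out. For the share of COG2 these values were -28.9, -11.1 and -31.7 to -26.7 percentage points. As a quotient of day means, lobe A without COG2 over lobe B was 2.34 times as high on Day 3, and 1.88 to 2.58 times when 1 embryo was left out. Its medians were 0.183 on Day 2 and 0.325 on Day 3. The causes were not tested. Of 187 values recomputed, 1 changed direction, the log2 fold change of COG8, which was not called and went from -0.21 to 0.01 in the first barcode set. The levels of COG4 are not among these values and also changed direction between measures. Its difference, Day 3 minus Day 2, was 2.43 in summed CPM, -7.09 CPM as the mean over cells and -0.0982 per 1000 ERCC UMI. The depth limits COG1, COG3, COG4 and COG8, with at most 87 UMI each.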

Other observations

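Of the 43 Day 2 cells, 4 held no UMI of COG2, and 3 of them came from Day2-E1. The deepest of the 4, a cell of Day2-E1 with 14445 UMI and 3847 genes, held 3 UMI of COG6, 1 of COG7 and 1 of COG4. At the level of its embryo 3.01 UMI of COG2 would have been counted in it. The others held 8800, 3230 and 3019 UMI.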
